A study of Homo sapiens with 6 samples.

Results

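The MYC network and the MYB family were examined as 9 transcription factor genes, taken by symbol from a table of 17939 genes: MYC, its partner MAX, the MAX-binding antagonists MXD1, MXD4, MXI1 and MNT, and the MYB factors MYB, MYBL1 and MYBL2. All 9 were in the table and all 9 passed the filter for testing, an average of 1 FPKM or more across libraries, so that none was dropped. LY2, the source of the RNA, is a breast cancer line that expresses the estrogen receptor (ER+) and resists endocrine therapy. The groups were siCDK12, transfected with a pool of siRNAs to CDK12 at 30 nmol/L, and siCtrl, transfected with a non-targeting pool at that dose, and both were harvested after 48 hours with 3 libraries each. Cells of both groups were deprived of serum and of hydroxytamoxifen before transfection per the study's methods, which describe the libraries as biological replicates. A single cell line and a single siRNA pool were used. CDK12 is a kinase that acts on elongating RNA polymerase II, and the comparison addresses what its depletion does to RNA levels.

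MYC is a basic helix-loop-helix leucine zipper factor that binds DNA only as a heterodimer with MAX, at E-boxes such as CACGTG, and drives genes of growth, ribosome synthesis and metabolism. The MXD proteins (MXI1 is one of them) and MNT compete for MAX and for the same sites, and recruit SIN3 and histone deacetylases, so that the balance between MYC and its antagonists sets the output of shared targets. MYB factors share a DNA-binding domain that reads AACNG. MYB is known from blood progenitors and from ER+ breast cancer, where it is a target of the estrogen receptor, MYBL1 is best known from meiosis in mouse testis, and MYBL2 works with the MuvB complex to switch on genes of the G2 and M phases.

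Values are FPKM, fragments scaled to transcript length and to mapped fragments, which makes levels of different genes comparable within a library. Fold changes are differences of log2(FPKM + 0.1), siCDK12 over siCtrl, and genes below an adjusted p of 0.05 were called (limma, Benjamini-Hochberg over 11533 tested genes). Across all tested genes 28.3% were called, 16.1% higher and 12.3% lower with siCDK12, and the median log2 fold change was 0.03. Rises made up 56.7% of the calls, but 45.1% after median-ratio scaling and 49.4% after quantile normalization. CDK12 itself stood at 2.23, 2.83 and 2.44 FPKM in siCDK12 libraries, against 11.17, 10.7 and 10.3 FPKM in siCtrl libraries (log2 fold change -2.06, limma adjusted p = 3.17e-07). Of 10 luminal breast cancer markers 9 reached 1 FPKM in at least 1 library, and PGR, the progesterone receptor, did not. The luminal markers moved with the knockdown in both directions: ESR1, the estrogen receptor (log2 fold change -0.33, limma adjusted p = 0.000187), and its target TFF1 (-0.26, 0.000957) were lower, GATA3 (0.21, 0.000921), KRT8 (0.18, 0.00349) and KRT18 (0.19, 0.00272) higher, and their sum ran from 7490 to 7741 FPKM in siCDK12 libraries and from 7380 to 7658 FPKM in siCtrl libraries. Basal markers summed to 10.3 to 10.6 FPKM in siCDK12 libraries and 10.3 to 11 FPKM in siCtrl libraries, with KRT14 at 0 throughout. Most of the sum was ACTA2, at 8.54 to 8.64 FPKM with siCDK12 and 7.81 to 8.37 FPKM with siCtrl. ACTA2 was not called (log2 fold change 0.09, limma adjusted p = 0.214), and TP63 was lower (log2 fold change -0.32, limma adjusted p = 0.0355). Summed fibroblast markers ranged from 10.7 to 11.2 FPKM in siCDK12 libraries and from 7.78 to 8.64 FPKM in siCtrl libraries, of which COL1A1, called higher, made up 10.49 to 11.08 FPKM with siCDK12 and 7.66 to 8.45 FPKM with siCtrl. The 3 others in the table stayed at or below 0.15 FPKM, with COL1A2 at 0 in all siCDK12 libraries and at most 0.02 FPKM in siCtrl libraries. The part of any of these markers in the results was not tested. Leukocyte markers summed to at most 2.81 FPKM (2 of 5 at 0 in every library) and endothelial markers to at most 0.23 FPKM.

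In control cells MYBL2 stood far above the other factors, MYC, MAX and MXD4 were level with each other, and MNT, MXI1, MXD1 and MYBL1 were low. The siCtrl means were 207 FPKM for MYBL2, higher than 98.3% of all genes in the table, then 44.8 for MYC, 42.9 for MAX and 42.6 for MXD4, 24.6 for MYB, 7.83 for MNT, 4.56 for MXI1, 3.21 for MXD1 and 2.81 for MYBL1. The ranges of MYC, MAX and MXD4 overlapped in siCtrl libraries, so that no order among them stood out from the spread. In siCDK12 libraries the same 3 genes no longer overlapped, with MXD4 between 50.44 and 52.49 FPKM, MAX between 45.8 and 48.11 FPKM and MYC between 39.56 and 41.81 FPKM. MXD1 and MYBL1 overlapped in siCDK12 libraries.

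**Figure D1:**
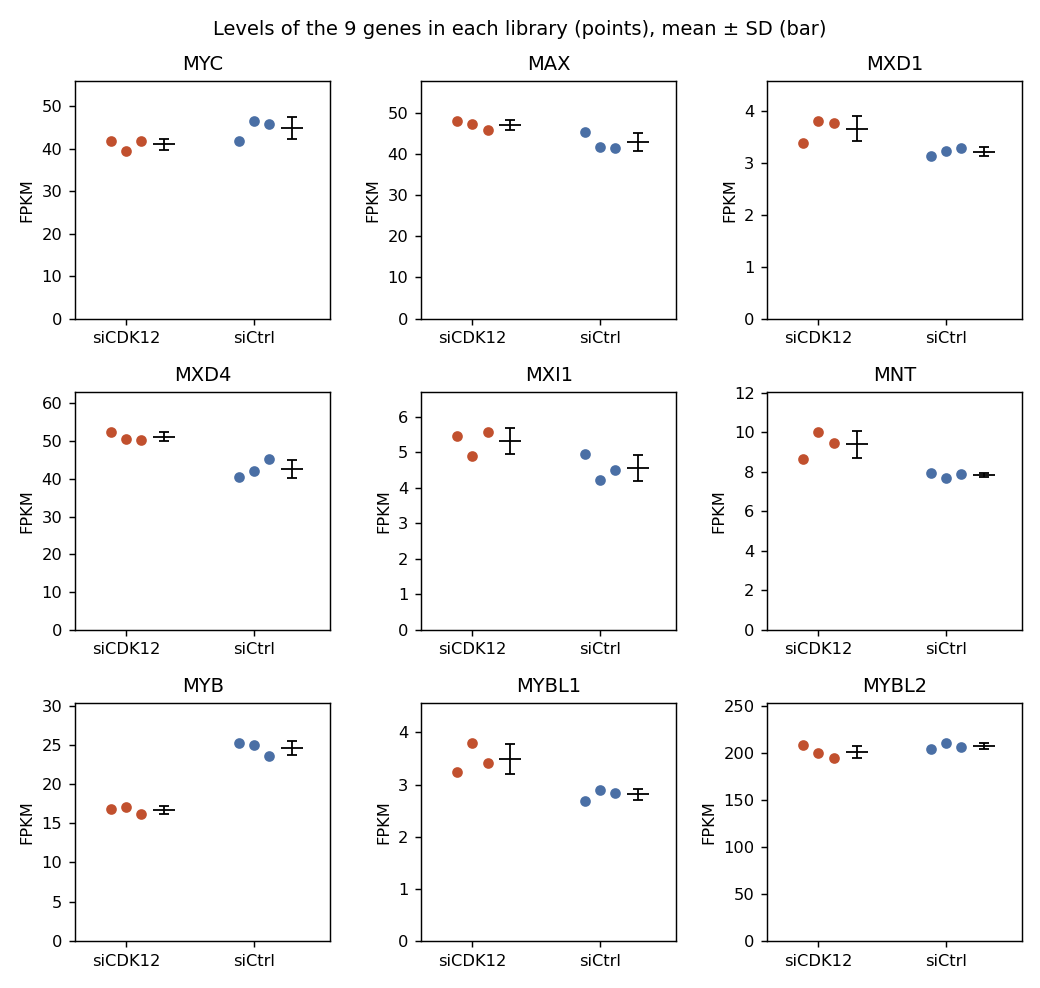
FPKM of the 9 genes in each library, with siCDK12 left of siCtrl, points for libraries and bars for mean ± SD (n = 3 each). MYB lies at 16.17 to 17.1 FPKM in siCDK12 libraries and at 23.55 to 25.24 FPKM in siCtrl libraries, while MYBL2 overlaps between the groups.

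With CDK12 knocked down, MYB fell, MAX, MXD4, MNT and MYBL1 rose, and MYC, MXD1, MXI1 and MYBL2 did not pass the test. Thus 5 of the 9 genes were called (55.6%, against 28.3% of all tested genes), 4 higher and 1 lower. The libraries of the groups did not overlap for 7 of the 9 (43.1% of all tested genes), the exceptions being MXI1 and MYBL2. The median log2 fold change of the 9 was 0.18. The 9 genes were picked by name, with earlier results of these data known. These counts therefore describe the genes and are not a test of the group. In bulk RNA, fewer cells with a transcript and less of it per cell cannot be told apart.

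**Figure D2:**
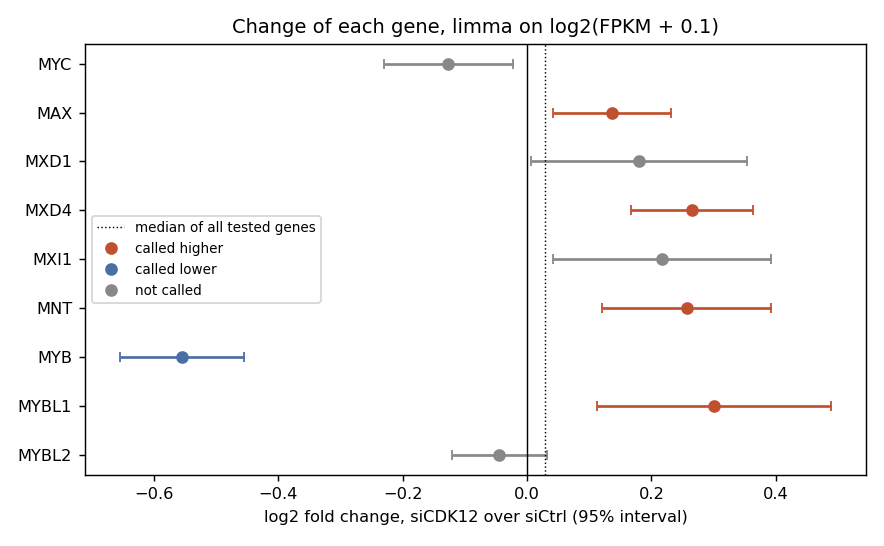
Log2 fold change of each gene (siCDK12 over siCtrl, horizontal axis) with its 95% interval from limma, coloured by call, and a dotted line at the median of all tested genes, 0.03. MYB, at -0.55, is the only gene called lower, and the intervals of MXD4 and MNT start at 0.17 and 0.12.

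MYC did not pass the test. Its transcript (chromosome 8) stood at 41.81, 39.56 and 41.78 FPKM in siCDK12 libraries, against 41.94, 46.64 and 45.96 FPKM in siCtrl libraries. Every siCDK12 library was below every siCtrl library, but siCtrl replicate 1 lay barely above the highest siCDK12 library. The log2 fold change was -0.13 (95% interval -0.23 to -0.02, limma adjusted p = 0.0664, exact two-sided permutation p = 0.1, the smallest that 3 against 3 libraries allow). Without siCtrl replicate 1 it was -0.17 and passed (limma adjusted p = 0.0149), and it also passed with median-ratio scaling (limma adjusted p = 0.0373).

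MAX, the obligate partner of MYC and of its antagonists (chromosome 14, 65006101 to 65102695, GRCh38), rose slightly. It measured 48.11, 47.4 and 45.8 FPKM in siCDK12 libraries, against 45.32, 41.81 and 41.5 FPKM in siCtrl libraries. The groups did not overlap, and the log2 fold change was 0.14 (SE 0.043, 95% interval 0.04 to 0.23, limma adjusted p = 0.0369). This call was the least stable of the 5. The limma adjusted p was 0.109, 0.0934 and 0.0516 without siCDK12 replicates 1, 2 and 3, and 0.116 and 0.105 without siCtrl replicates 2 and 3. It was 0.0815 with median-ratio scaling, 0.069 with quantile normalization, 0.0644 with no filter and 0.0866 with no variance trend, and the sign was positive in all 16 alternatives. FNTB, a farnesyltransferase subunit whose span overlaps that of MAX, was not called (log2 fold change 0.09, limma adjusted p = 0.55). MAX-AS1, an antisense RNA, also overlaps MAX, and since the sources used here do not give the strand setting of the libraries, reads of the pair cannot be told apart.

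All 4 antagonists among the 9 genes had a higher mean with siCDK12, and MXD4 and MNT passed the test. MXD4, the most abundant antagonist (chromosome 4, 2247432 to 2262109, GRCh38), is a MAX-binding repressor linked to cell cycle exit. It measured 52.49, 50.63 and 50.44 FPKM in siCDK12 libraries, against 40.5, 42.1 and 45.22 FPKM in siCtrl libraries. The lowest siCDK12 library was thus clear of the highest siCtrl library. The mean was 51.2 ± 1.13 FPKM with siCDK12 and 42.6 ± 2.4 FPKM with siCtrl (SD, n = 3 each), a rise of 20.1% (log2 fold change 0.27, SE 0.0446, limma adjusted p = 0.00154). MNT, the antagonist that proliferating cells also express (chromosome 17, 2384073 to 2401060, GRCh38), measured 8.66, 10.03 and 9.48 FPKM in siCDK12 libraries, against 7.92, 7.7 and 7.87 FPKM in siCtrl libraries. The siCDK12 libraries were all higher and more scattered, and the mean rose by 19.9% (log2 fold change 0.26, SE 0.0615, limma adjusted p = 0.0108). Both calls held in all 16 alternatives, with limma adjusted p up to 0.0124 for MXD4 and 0.0421 for MNT.

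The other pair were low and were not called. MXI1 (chromosome 10, 110207605 to 110287365, GRCh38) measured 5.46, 4.89 and 5.58 FPKM in siCDK12 libraries, against 4.95, 4.23 and 4.49 FPKM in siCtrl libraries. Here siCDK12 replicate 2 lay below siCtrl replicate 1, so that the groups overlapped (log2 fold change 0.22, 95% interval 0.04 to 0.39, limma adjusted p = 0.0642). Without siCDK12 replicate 2 the limma adjusted p was 0.0417 and without siCtrl replicate 1 it was 0.0385. MXD1, the founding MXD gene, induced on differentiation (chromosome 2, 69915109 to 69942945, GRCh38), measured 3.38, 3.81 and 3.77 FPKM in siCDK12 libraries, against 3.12, 3.22 and 3.29 FPKM in siCtrl libraries (log2 fold change 0.18, 95% interval 0.01 to 0.35, limma adjusted p = 0.112). The groups did not overlap, but siCDK12 replicate 1 lay just above the highest siCtrl library.

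Within a library, MYC stood lower relative to its partner and to the sum of these 4 antagonists after CDK12 knockdown. The ratio of MYC to the sum of MXD1, MXD4, MXI1 and MNT was 0.597, 0.57 and 0.603 in siCDK12 libraries, against 0.742, 0.815 and 0.755 in siCtrl libraries. The 4 antagonists together made up 69.99, 69.36 and 69.27 FPKM in siCDK12 libraries and 56.49, 57.25 and 60.87 FPKM in siCtrl libraries, most of it MXD4. The groups did not overlap in either measure. The sum leaves out MXD3, another MXD gene, which was not called and stood at 22.8 FPKM with siCDK12 and 23.2 FPKM with siCtrl. The ratio of MYC to MAX was 0.872 ± 0.0389 with siCDK12 and 1.05 ± 0.108 with siCtrl (SD, n = 3 each). By library it was 0.869, 0.835 and 0.912 with siCDK12, against 0.925, 1.12 and 1.11 with siCtrl. These also did not overlap, but siCtrl replicate 1 lay barely above siCDK12 replicate 3. For each of 5 ratios computed, these 2 and the shares of the 3 MYB genes, the exact two-sided permutation p was 0.1, the smallest possible here, and 0.1 when adjusted over the 5. The ratios rest on the same values as the single genes and say nothing of protein levels.

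**Figure D3:**
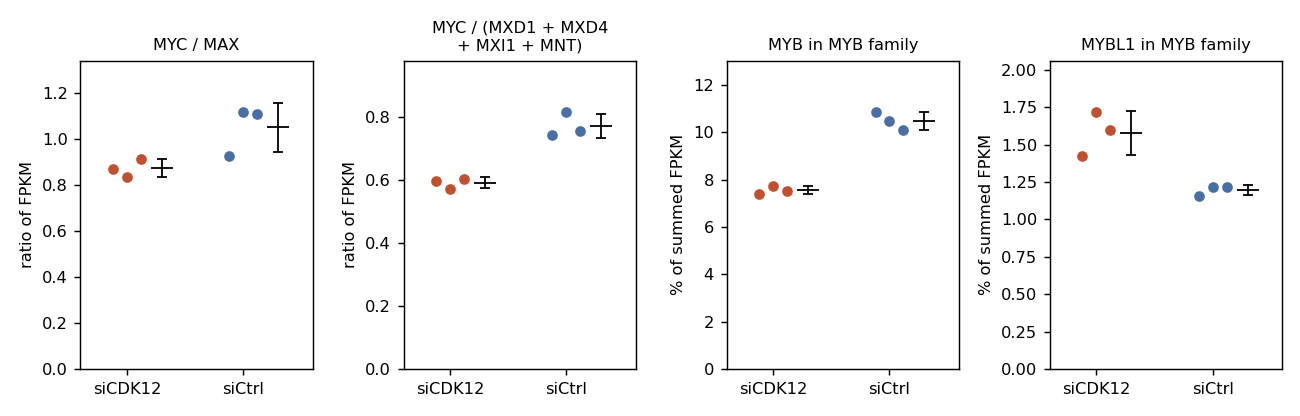
Ratios of FPKM (left pair) and percent of the summed MYB family FPKM (right pair) in each library, siCDK12 left of siCtrl, with mean ± SD (n = 3 each). The ratio of MYC to summed MXD1, MXD4, MXI1 and MNT lies at 0.57 to 0.603 in siCDK12 libraries and at 0.742 to 0.815 in siCtrl libraries.

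The sequence upstream of MXD4 and MNT, the antagonists that rose, is shown because it holds the E-box letters that MYC, MAX and the antagonists themselves read. RefSeq windows (GRCh38.p14) were matched for 7 of the 9 genes, all but MYC and MYBL1, and the 250 bases before the transcript start were searched on both strands for CACGTG. MXD4 (chr4:2262110-2262359, minus strand) and MNT (chr17:2401061-2401310, minus strand) each held 1 E-box, marked in capitals, which began 238 and 193 bases before the start.
MXD4: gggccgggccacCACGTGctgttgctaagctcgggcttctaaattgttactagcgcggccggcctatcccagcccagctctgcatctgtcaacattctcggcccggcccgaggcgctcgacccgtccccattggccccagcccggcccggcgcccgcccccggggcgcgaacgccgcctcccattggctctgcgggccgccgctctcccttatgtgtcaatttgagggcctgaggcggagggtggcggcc
MNT: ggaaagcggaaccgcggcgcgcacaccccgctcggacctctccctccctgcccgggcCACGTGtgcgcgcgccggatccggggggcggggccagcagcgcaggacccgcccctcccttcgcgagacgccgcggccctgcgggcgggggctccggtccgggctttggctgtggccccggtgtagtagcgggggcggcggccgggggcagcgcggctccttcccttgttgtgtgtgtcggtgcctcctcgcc
Besides these, MYBL2 held an E-box, so that 3 of 7 windows had CACGTG, against 9.24% of the windows of 9527 tested genes. MAX, whose window lies inside the span of its own gene, MXD1, MXI1 and MYB had no match. A match describes the letters only and shows no binding.

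MYB was the member that moved most. MYB (chromosome 6, 135181308 to 135219172, GRCh38) measured 16.85, 17.1 and 16.17 FPKM in siCDK12 libraries, against 25.24, 24.98 and 23.55 FPKM in siCtrl libraries. The groups were far apart relative to the scatter within each, at 16.7 ± 0.481 FPKM with siCDK12 and 24.6 ± 0.91 FPKM with siCtrl (SD, n = 3 each). MYB fell by 32.1% (log2 fold change -0.55, SE 0.045, 95% interval -0.65 to -0.46, limma adjusted p = 1.85e-05). Its change was larger in size than that of 97.1% of tested genes. The call held in all 16 alternatives, with log2 fold changes between -0.59 and -0.53. The long non-coding RNA LOC105378011 overlaps the span of MYB, and reads there may be shared, as for MXI1 and LOC105378480.

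MYBL1 moved the other way from a low level. MYBL1 (chromosome 8) measured 3.25, 3.8 and 3.42 FPKM in siCDK12 libraries, against 2.69, 2.9 and 2.84 FPKM in siCtrl libraries. All siCDK12 libraries were higher, and the mean rose by 24.2% (log2 fold change 0.30, SE 0.0853, limma adjusted p = 0.0236). The call was lost without siCDK12 replicate 2 (limma adjusted p = 0.0872), siCDK12 replicate 3 (0.0545) or siCtrl replicate 1 (0.0718) and with no filter (0.0526).

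MYBL2 did not pass the test at its high level. MYBL2 (chromosome 20, 43667114 to 43716482, GRCh38) measured 208.09, 200.44 and 194.79 FPKM in siCDK12 libraries, against 204.55, 210.83 and 206.83 FPKM in siCtrl libraries. The groups overlapped, and the interval of the log2 fold change ran from -0.12 to 0.03 (estimate -0.04, limma adjusted p = 0.364). MYBL2 was not called in any of the 16 alternatives.

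MYBL2 made up most of the family's RNA in both groups. MYB was 7.38%, 7.73% and 7.54% of the summed MYB, MYBL1 and MYBL2 FPKM in siCDK12 libraries, against 10.9%, 10.5% and 10.1% in siCtrl libraries. MYBL1 made up 1.58% ± 0.147 with siCDK12 and 1.2% ± 0.0342 with siCtrl, and MYBL2 90.9% ± 0.317 with siCDK12 and 88.3% ± 0.349 with siCtrl (SD, n = 3 each). None of these 3 shares overlapped between the groups. They are parts of the same sum and so not 3 separate results, and the level of MYBL2 itself was not called.

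The promoters of MYB and MYBL2 are shown since these family members differed in response. In the 250 bases before the start, MYB (chr6:135181058-135181307, plus strand) and MYBL2 (chr20:43666864-43667113, plus strand) both held TTGGCGGG, a run that matches the core of an E2F site, 60 and 41 bases before the start. It was picked after the sequences were seen. Capitals mark it and, in MYBL2, the E-box as well.
MYB: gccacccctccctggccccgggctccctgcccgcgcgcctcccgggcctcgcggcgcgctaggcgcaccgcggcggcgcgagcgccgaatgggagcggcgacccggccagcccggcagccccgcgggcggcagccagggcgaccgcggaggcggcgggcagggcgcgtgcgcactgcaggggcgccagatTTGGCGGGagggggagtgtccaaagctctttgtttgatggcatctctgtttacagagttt
MYBL2: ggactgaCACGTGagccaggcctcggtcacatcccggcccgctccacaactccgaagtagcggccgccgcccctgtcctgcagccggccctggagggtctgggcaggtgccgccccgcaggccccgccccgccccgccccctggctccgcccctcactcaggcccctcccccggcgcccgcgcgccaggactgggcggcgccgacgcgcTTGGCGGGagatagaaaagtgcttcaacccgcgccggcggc
TTGGCGGG occurred in 1.81% of the windows of tested genes and in no other of the 7 windows. The MYB recognition letters AACNG were present in 5 of the 7, against 67.5% of tested genes, and not in MAX or MYBL2. TTTGAA, the element shared by many G2/M promoters, was in 0 of 7, against 8.22% of tested genes. Matches of different motifs did not overlap.

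The members were set beside genes whose levels followed theirs most closely over the 6 libraries, out of 8701 genes averaging 5 FPKM or more. For MYB these were SERINC5 (Pearson r = 0.9996), FANCI (0.9982), a Fanconi anemia protein, and SLFN5 (0.9982). For MXD4 they were SEMA3F (0.9973), a semaphorin, GPR137 (0.9959) and MVD (0.9947), an enzyme of cholesterol synthesis. MNT was followed by COQ8B (0.9916), NPIPA1 (0.9915) and GSK3B (0.9904), MAX by the histone genes HIST1H2AM (0.9932) and HIST1H2AE (0.9926) and by CNOT4 (0.9905), and MYBL1 by SH2B1 (0.9921), RDH13 (0.9897) and MTRNR2L6 (0.9891). NPIPA1 and MTRNR2L6 belong to multicopy families and the histone genes have close copies, whose reads can be split. With 6 libraries in 2 groups such values are common: 800 genes exceeded r = 0.9 with MYB and 203 with MAX. An r can carry the difference between the groups, scatter within them, or both. CNOT4, not called (limma adjusted p = 0.295), and HIST1H2AM overlapped between the groups. Their siCDK12 replicate 3 (15.03 and 13.65 FPKM) lay below siCtrl replicate 1 (15.13 and 13.89 FPKM).

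Of 5 tested network genes outside the 9, 1 was higher and 1 lower (40%, against 28.3% of all tested genes), with a median log2 fold change of -0.03. MYCN, the neural paralog of MYC, stood at 1.78, 1.56 and 1.63 FPKM in siCDK12 libraries, against 0.96, 1.2 and 1.12 FPKM in siCtrl libraries (log2 fold change 0.56, limma adjusted p = 0.00826). It rose, but in every library it lay far below MYC. MLX, which pairs with the Mondo proteins in place of MAX, was lower, with 52.64, 46.76 and 48.8 FPKM in siCDK12 libraries, against 55.69, 55.39 and 53.46 FPKM in siCtrl libraries (log2 fold change -0.15, limma adjusted p = 0.0299). This call was lost without siCDK12 replicate 2 (limma adjusted p = 0.109) or 3 (0.0893), without siCtrl replicate 1 (0.0736) or 2 (0.084), with no filter (0.0624) and with no variance trend (0.0801). MXD3, the remaining MXD gene, was not called (22.8 FPKM with siCDK12 and 23.2 FPKM with siCtrl), and MYCL and MGA, with means under 1 FPKM in both groups, were not tested.

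Among 15 MYC co-factors 4 were higher and 1 lower (33.3% called, against 28.3% of all tested genes), with a median log2 fold change of 0.04. KAT2A, an acetyltransferase of the complex that MYC brings to promoters, rose to 43.0 ± 0.844 FPKM with siCDK12, against 37.0 ± 1.07 FPKM with siCtrl (SD, n = 3 each; log2 fold change 0.22, limma adjusted p = 0.00202). The call held in all 16 alternatives, while the count of 4 was 2 without siCDK12 replicate 1 or 3 or siCtrl replicate 3, and with no filter, median-ratio scaling or quantile normalization. The 1 lower, RUVBL1, was not called without siCDK12 replicate 2 (limma adjusted p = 0.0773) or siCtrl replicate 1 (0.0607). Of 7 co-repressors that the MXD proteins and MNT recruit, only SIN3A was called (14.3%, against 28.3% of all tested genes). That call was lost with any single library left out (limma adjusted p from 0.0679 to 0.145). Of 12 genes that act on MYC protein stability 2 were higher and 3 lower (41.7% called, against 28.3% of all tested genes), counts that ranged over 0 to 2 in each direction on dropping single libraries. They included USP28, a deubiquitinase of MYC (log2 fold change 0.27, limma adjusted p = 0.0184), whose call was lost when siCDK12 replicate 2 (0.0665) or 3 (0.0512), or siCtrl replicate 2 (0.0617) or 3 (0.0527), was left out. GSK3B, a kinase that marks MYC for degradation, was also higher (log2 fold change 0.17, limma adjusted p = 0.0196), and its call was lost when siCDK12 replicate 2 (0.0718) or 3 (0.0631), or siCtrl replicate 2 (0.0539), was left out.

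Of 66 listed MYC targets of growth and ribosome synthesis, 14 were lower, 3 higher and 49 not called (25.8% called, against 28.3% of all tested genes). Their median log2 fold change was -0.03. Across all tested genes calls leaned the other way, with 12.3% lower and 16.1% higher, and this difference in direction was not tested. The lean across all genes depended on scaling, with rises 45.1% of the calls after median-ratio scaling and 49.4% after quantile normalization. CDC25A, a phosphatase that drives S phase entry, fell most, with 5.52, 6.36 and 5.51 FPKM in siCDK12 libraries, against 10.26, 9.93 and 10.89 FPKM in siCtrl libraries (log2 fold change -0.83, limma adjusted p = 2.02e-05). MAP3K6, a stress kinase, rose (log2 fold change 0.38, limma adjusted p = 0.000228), and IMPDH2, which makes guanine nucleotides, fell (log2 fold change -0.20, limma adjusted p = 0.00175). With single libraries left out 9 to 12 were lower, the 9 without siCtrl replicate 2, and 3 or 4 higher. ODC1 and NCL, long-known MYC targets, were not called (log2 fold changes 0.01 and -0.05). In the same list CAD and LDHA were lower (log2 fold changes -0.29 and -0.15, limma adjusted p = 0.00233 and 0.00622). Of 6 tested genes that MYC represses GADD45A and NDRG1 were higher (33.3% called, against 28.3% of all tested genes). Both calls were lost without siCDK12 replicate 1 (limma adjusted p = 0.0655 and 0.0544), siCDK12 replicate 3 (0.114 and 0.0799) or siCtrl replicate 2 (0.0975 and 0.0553). Of 3 targets of MLX and its Mondo partners 2 were higher (66.7%, against 28.3% of all tested genes). That count dropped to 1 when siCDK12 replicate 1 or 3, or siCtrl replicate 2 or 3, was left out. TXNIP, an inhibitor of glucose uptake among these targets, rose to 120.28, 112.06 and 115.85 FPKM with siCDK12, against 100.17, 96.51 and 96.01 FPKM with siCtrl (log2 fold change 0.25, limma adjusted p = 0.000707).

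Of 12 tested genes described as MYB targets 2 were higher and 2 lower (33.3% called, against 28.3% of all tested genes), with a median log2 fold change of -0.01. CXCR4, a chemokine receptor, measured 10.28, 10.09 and 10.55 FPKM in siCDK12 libraries, against 6.26, 6.66 and 8.38 FPKM in siCtrl libraries (log2 fold change 0.54, limma adjusted p = 0.00154), and GATA3, a luminal transcription factor, also rose (log2 fold change 0.21, limma adjusted p = 0.000921). BCL2, an anti-apoptotic protein (log2 fold change -0.37, limma adjusted p = 0.0253), and HSPA8, a chaperone (-0.14, limma adjusted p = 0.0116), were lower, and 0 of the 12 were lower without siCDK12 replicate 3 and 1 without siCtrl replicate 2. KIT, a receptor kinase and MYB target in blood cells, lay at or below 0.46 FPKM in every library and was not tested. Of 7 MYB co-factors only CREBBP was called (14.3%, against 28.3% of all tested genes). Its log2 fold change was 0.20 (limma adjusted p = 0.0169), and it was not called without siCDK12 replicate 2 (0.0611) or siCtrl replicate 3 (0.0504).

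Of 13 MuvB and DREAM genes, among them the subunits with which MYBL2 works, 5 were lower and 1 higher (46.2% called, against 28.3% of all tested genes), with a median log2 fold change of -0.07. LIN52, the MuvB subunit that MYBL2 and the repressive pocket proteins contact, fell most, with 6.5, 5.93 and 6.53 FPKM in siCDK12 libraries, against 10.25, 10.15 and 9.6 FPKM in siCtrl libraries. The groups were well separated (log2 fold change -0.65, SE 0.0594, limma adjusted p = 3.26e-05). FOXM1, the factor that follows MYBL2 at G2/M promoters, measured 86.44, 83.98 and 84.41 FPKM in siCDK12 libraries, against 94.75, 98.88 and 94.06 FPKM in siCtrl libraries (log2 fold change -0.17, limma adjusted p = 0.00375). TFDP2, an E2F partner, rose (log2 fold change 0.38, limma adjusted p = 0.00809). Those 3 calls held in every alternative in which the gene was tested, and 4 or 5 were lower with any single library left out. Among 25 G2/M genes bound by MYBL2 and MuvB 2 were higher and 0 lower (limma, 8% called, against 28.3% of all tested genes), with a median log2 fold change of 0.01. At an unadjusted limma p under 0.05, 3 were higher and 2 lower, and after median-ratio scaling 1 was called higher and 2 lower. NEK2, a centrosome kinase, rose (log2 fold change 0.34, limma adjusted p = 0.00037), while PRC1, a spindle protein, was lost in 10 of 16 alternatives, among them each single library left out other than siCDK12 replicate 1 (limma adjusted p from 0.0563 to 0.157). The proliferation marker MKI67 was not called (log2 fold change -0.04, limma adjusted p = 0.685). The difference between the lists themselves was not tested.

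**Figure D4:**
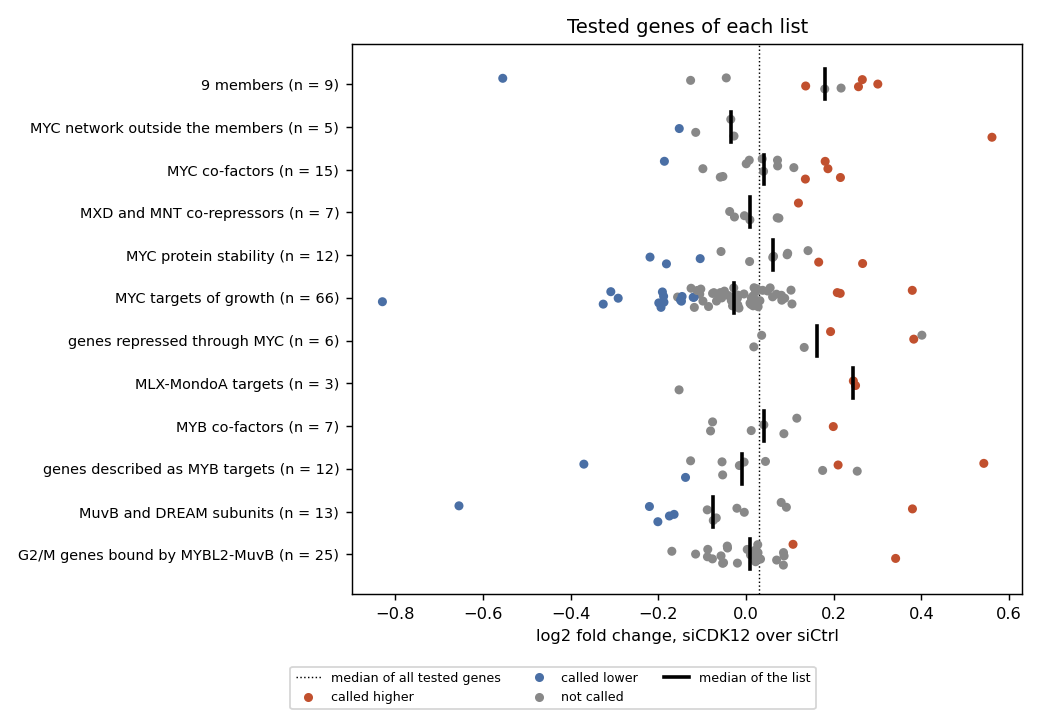
Log2 fold change (siCDK12 over siCtrl) of every tested gene of each list, coloured by call, with the list's median as a black bar and the median of all tested genes, 0.03, as a dotted line. CDC25A (-0.83), LIN52 (-0.65) and, among the G2/M genes, NEK2 (0.34) lie at the ends of their lists.

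**Figure D5:**
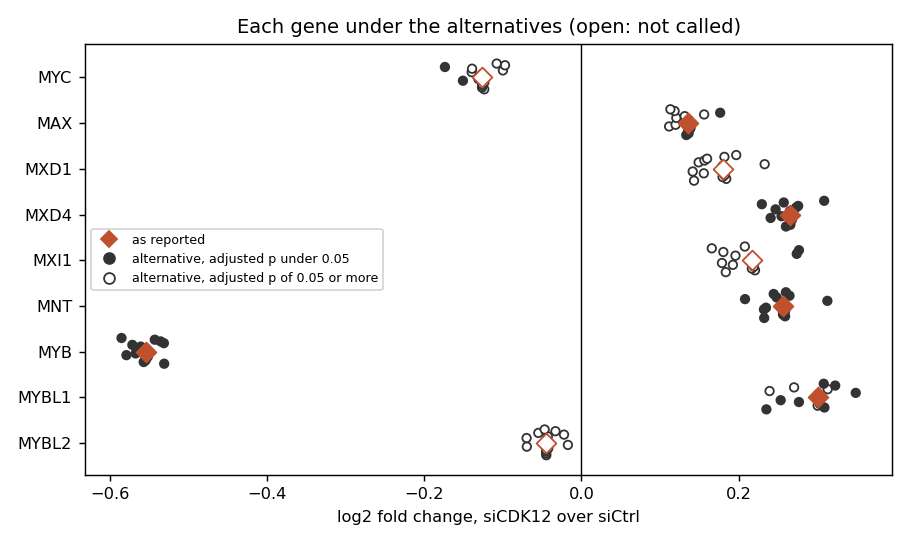
Log2 fold change of each of the 9 genes (horizontal axis, siCDK12 over siCtrl) as reported (diamonds) and under the alternative settings (circles), filled where the limma adjusted p was under 0.05. No gene changes sign, MYB stays between -0.59 and -0.53 and filled throughout, and MAX is open in 9 of 16 alternatives.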

How the data were processed

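The authors sequenced RNA of 6 LY2 libraries, removed adaptors and low-quality reads, aligned the rest to GRCh38 with Bowtie2 and estimated levels with RSEM, per the labels and the study's methods, and deposited 1 table of FPKM. FPKM is scaled to library size and transcript length, so that a change in a few abundant genes moves all others. Read counts were not used here, so that the depth behind each value is unknown and no counting interval is given. The read strand is not given in the sources used here.

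From the table, log2(FPKM + 0.1) was compared between siCDK12 and siCtrl (3 libraries each) with limma 3.58.1 in R 4.3.3, with a variance trend and no block, over the 11533 genes averaging 1 FPKM or more, two-sided, with Benjamini-Hochberg adjustment and a threshold of 0.05. The routine was tested on simulated data. Ratios were compared by exact permutation. P-values measure the spread between these libraries. The members and lists were chosen with earlier results of these data known. Named genes were the 9 members, CDK12, up to 3 called genes of each list with the smallest p and, for each called member, the 3 genes of highest Pearson r. MXD3, MYCL, MGA, ODC1, NCL, CAD, LDHA, BCL2, KIT, MKI67, cell type markers and the genes overlapping or next to members were named after their values were seen. Some genes that the rule names are not reported here. Alternatives covered the pseudocount, filter, scaling, variance model, replicate block and each library left out. Upstream windows came from RefSeq (GRCh38.p14). Positions came from an annotation of GRCh38.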

Additional observations from a re-analysis of the deposited data

How the results depend on the processing

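No gene among the 9 changed sign in any of the 16 alternatives run, and MXD1, MXI1 and MYBL1 had 15, since they fell below a mean of 5 FPKM. With single libraries left out, 1207 to 1603 of all genes were called higher, against 1853 with all 6, the lowest without siCDK12 replicate 3, and each such fit also had fewer samples. Among the 9 genes, 2 to 4 were then called higher, the 2 without siCDK12 replicate 3, and 1 or 2 lower, the 2 without siCtrl replicate 1. With no filter 2 were called higher, and with median-ratio scaling 2 lower. With single libraries left out, the log2 fold change ran from -0.17 to -0.10 for MYC, 0.11 to 0.18 for MAX, 0.17 to 0.28 for MXI1 and 0.24 to 0.35 for MYBL1. MYC was -0.15 and called with median-ratio scaling. MAX was not called at 0.14 with no filter or no variance trend, 0.11 with median-ratio scaling or 0.12 with quantile normalization, and MYBL1 not at 0.30 with no filter. Apart from the construction of each setting, the cause was not tested. Same-numbered libraries did not deviate together (r = -0.0029, 0.0197 and -0.0279), and no siCDK12 library correlated best with its own number. With the replicate block 1550 genes were called higher and 1208 lower, and among the 9 genes 4 higher and 1 lower.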

Other observations

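The nearest tested gene on each side of the 9 members was read for the same comparison, and 5 of these 18 were called, against 28.3% of all tested genes. AHI1, a cilium gene 64.4 kb after MYB, measured 2.01, 1.87 and 1.95 FPKM in siCDK12 libraries, against 2.88, 3.1 and 3.05 FPKM in siCtrl libraries (log2 fold change -0.61, limma adjusted p = 0.000579), while HBS1L, 126 kb before MYB, was not called (-0.12, limma adjusted p = 0.11). SGSM2, 3.02 kb before MNT, was higher (log2 fold change 0.18, limma adjusted p = 0.0223), and METTL16 on the other side was not called (-0.10, limma adjusted p = 0.14). HAUS3 and ZFYVE28, on either side of MXD4, were not called (0.11 and 0.02, limma adjusted p = 0.121 and 0.871). FAM49B after MYC, FUT8 after MAX and XPNPEP1 before MXI1 were higher (log2 fold changes 0.18, 0.18 and 0.16, limma adjusted p = 0.00782, 0.00794 and 0.0302), and the neighbours of MXD1, MYBL1 and MYBL2 were not called.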
